A study of Mus musculus with 6 samples.

Results

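The miR-183 cluster is a group of 3 microRNA (miRNA) hairpin genes that lie next to each other on mouse chromosome 6. Its members were taken by name, as every entry of the deposited table called mmu-miR-183, mmu-miR-96 or mmu-miR-182 with either arm suffix. This gave 5 of the 718 entries, namely mmu-miR-183-5p, mmu-miR-183-3p, mmu-miR-96-5p, mmu-miR-182-5p and mmu-miR-182-3p, and mmu-miR-96-3p was not listed. The libraries hold small RNA from small extracellular vesicles (sEVs), membrane-bound particles that cells release, which were collected from the culture medium of isolated pancreatic islets by ultracentrifugation. All islets came from wild-type mice whose strain is given as C57/B6J in the labels and as C57BL/6J in the study. Vesicles from islets of mice on normal chow diet (NCD) are called nid-sEVs and those from islets of mice on high-fat diet (HFD) aid-sEVs, with 3 libraries in each group. The study compared them to ask how the miRNA cargo of islet vesicles differs in diet-induced obesity. The labels give neither age nor length of the diet, and the study describes diets begun in young adult mice and continued for some weeks, to a stage it calls compensatory. The number of mice behind a library was not given in the sources used here, so the p-values measure the spread between these libraries, which may be partly technical.

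A miRNA hairpin is cut by Drosha and Dicer into a short duplex. Usually 1 arm of it, the guide, is kept in an Argonaute protein and pairs with messenger RNAs through its seed, bases 2 to 8 from the 5′ end, while the other arm is mostly lost. The hairpins of the miR-183 cluster are transcribed together as a single primary transcript, and the cluster is known for its high level in photoreceptors, hair cells of the inner ear and other sensory neurons. Changes in the miR-96 seed cause progressive hearing loss in mice and people, and Foxo1, a transcription factor under insulin control, is a known target of both miR-96 and miR-182.

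The mature sequences show how close the members are, and they are printed here because the pair of guide strands called higher in aid-sEVs is the pair whose seeds match least. All are from RefSeq on build GRCm38.p6, on the minus strand of chromosome 6, and run 5′ to 3′ with the seed in capitals.
mmu-miR-183-5p, chr6:30169711-30169732: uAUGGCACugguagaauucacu
mmu-miR-96-5p, chr6:30169506-30169528: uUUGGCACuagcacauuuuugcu
mmu-miR-182-5p, chr6:30165962-30165986: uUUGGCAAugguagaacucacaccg
mmu-miR-183-3p, chr6:30169672-30169693: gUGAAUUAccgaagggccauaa
mmu-miR-182-3p, chr6:30165923-30165943: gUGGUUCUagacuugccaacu

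The miR-96-5p seed matched 6 of 7 bases of the miR-183-5p seed and 6 of 7 bases of the miR-182-5p seed, whereas the seeds of miR-183-5p and miR-182-5p matched each other at 5 of 7 bases. Over the whole molecule the order was different. Aligned from the 5′ end without gaps, miR-183-5p and miR-182-5p were identical at 18 of 22 bases (81.8%), miR-183-5p and miR-96-5p at 13 of 22 (59.1%), and miR-96-5p and miR-182-5p at 12 of 23 (52.2%). Thus miR-183-5p and miR-182-5p were alike mainly behind the seed, where 12 of 14 bases matched, and the longest identical run between them was 8 bases. How reads that matched more than 1 miRNA were counted was not given in the sources used here. Among 1679 mature mouse miRNAs in the reference, the seed of miR-96-5p occurred in 1 other, mmu-miR-1271-5p (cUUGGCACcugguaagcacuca, chr13:54578152-54578173, plus strand), which was not an entry of the table. The seeds of miR-183-5p and miR-182-5p occurred in 0 others.

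The hairpins are shown in transcription order with the mature arms in capitals to show where each arm sits and which hairpins are neighbors.
Mir183, chr6:30169668-30169737: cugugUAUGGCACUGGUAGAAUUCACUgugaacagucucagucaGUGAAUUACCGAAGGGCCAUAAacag
Mir96, chr6:30169446-30169551: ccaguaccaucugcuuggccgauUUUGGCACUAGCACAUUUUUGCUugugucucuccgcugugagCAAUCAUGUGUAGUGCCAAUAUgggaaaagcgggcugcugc
Mir182, chr6:30165918-30165992: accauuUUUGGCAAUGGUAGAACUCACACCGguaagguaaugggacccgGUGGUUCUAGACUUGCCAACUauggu

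Mir183 and Mir96 were separated by 116 bases, and Mir96 and Mir182 by 3453 bases. All 3 hairpins lay within the RefSeq long noncoding RNA Mirc35hg (chr6:30158640-30174125), and no protein-coding gene overlapped the stretch from Mir182 to Mir183.

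The level of each entry was given in RPM, the reads of an entry scaled to a fixed library total. Whole reads could be recovered from these values, and the totals were 50534 to 129152 reads in nid-sEVs and 122266 to 519315 reads in aid-sEVs. Thus 3 reads, the smallest level taken as measurable, stood for 23.2 to 59.4 RPM in nid-sEVs and 5.78 to 24.5 RPM in aid-sEVs, and 229 to 417 entries were at 0 in a nid-sEV library against 89 to 159 in an aid-sEV library. In the first nid-sEV library 33.4% of reads fell on entries without a miRBase name, against 6.61% to 9.45% in the other 5. Over all 718 entries the median log2 fold change was 1.11, whereas over the 219 entries above 0 in every library it was -0.21. The 5p arms of the cluster were well covered, with at least 78 reads in every library. The level of an arm in a bulk vesicle sample cannot tell fewer vesicles from a cell type apart from less of the miRNA in each vesicle.

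The 2 arms that dominated the cluster in aid-sEVs were miR-182-5p and miR-183-5p, and both were higher than in nid-sEVs by a wide margin. Their partner miR-96-5p, a guide strand from the same transcript, was not called and overlapped between the groups. In nid-sEVs the 3 guide strands had nearly equal means, at 2352 RPM for miR-183-5p, 2742 RPM for miR-96-5p and 2825 RPM for miR-182-5p. In aid-sEVs they were at 18632, 3878 and 31112 RPM. A call here needed a Benjamini-Hochberg adjusted p under 0.05 over all 718 entries with limma on log2(RPM + 1) together with an absolute log2 fold change above 1.

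For miR-182-5p, the cluster's most abundant member in aid-sEVs, the nid-sEV libraries held 2462, 3441 and 2573 RPM (318, 226 and 130 reads) and the aid-sEV libraries 27694, 34169 and 31472 RPM (14382, 12036 and 3848 reads). Every aid-sEV library was above every nid-sEV library, and the spread within each group was small beside the gap between them. The group means were 2825 ± 536 and 31112 ± 3253 RPM (SD, n = 3 each), a ratio of 11. The log2 fold change was 3.47 ± 0.28 (SE, 95% interval 2.79 to 4.15), with a limma adjusted p of 0.0034. Ranked by its group mean among all entries, miR-182-5p went from place 49 in nid-sEVs to place 8 in aid-sEVs.

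For miR-183-5p, which shares most of its bases behind the seed with miR-182-5p, the levels were 1920, 3594 and 1544 RPM in nid-sEVs (248, 236 and 78 reads) and 13279, 21130 and 21486 RPM in aid-sEVs (6896, 7443 and 2627 reads). Again the groups did not overlap, although the first aid-sEV library was lower than the other two and the second nid-sEV library higher than the other two. The means were 2352 ± 1091 and 18632 ± 4639 RPM (SD, n = 3 each), a ratio of 7.92. The log2 fold change was 3.05 ± 0.43 (SE, 95% interval 2.01 to 4.09), with a limma adjusted p of 0.010. Its rank by mean went from 54 to 15.

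For miR-96-5p, the miRNA whose seed changes cause deafness, the levels were 1641, 4507 and 2078 RPM in nid-sEVs (212, 296 and 105 reads) and 2798, 3404 and 5431 RPM in aid-sEVs (1453, 1199 and 664 reads). The groups overlapped, as the second nid-sEV library was above 2 of the 3 aid-sEV libraries. The 95% Wilson interval of that library, 4023 to 5049 RPM, lay above those of the first and second aid-sEV libraries, 2658 to 2945 and 3217 to 3602 RPM, so the overlap was larger than counting error. The means were 2742 ± 1544 and 3878 ± 1379 RPM (SD, n = 3 each), a ratio of 1.41, and the log2 fold change was 0.58 ± 0.51 (SE, 95% interval -0.65 to 1.82), with a limma adjusted p of 0.48. The interval included both 0 and an increase of more than 1 on the log2 scale, so an increase of that size in miR-96-5p was not excluded by these libraries. The second nid-sEV library weighed on this value, since without it the log2 fold change of miR-96-5p was 1.01 (limma adjusted p = 0.26). Scaling with TMM factors, edgeR's correction for differences in composition, gave 1.08 (limma adjusted p = 0.11) and raised the median over all entries by 0.32.

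**Figure D1:**
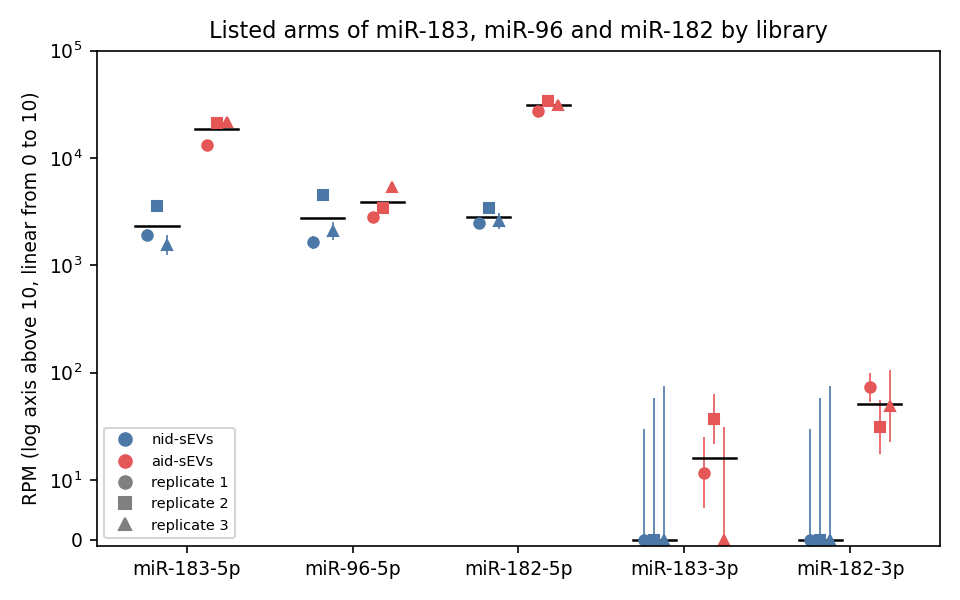
RPM (log axis above 10 RPM, linear from 0 to 10) of the listed arms of the cluster, with points for single libraries of nid-sEVs and aid-sEVs, thin vertical lines for 95% Wilson intervals and horizontal bars for group means. The points of miR-182-5p (2462 to 3441 against 27694 to 34169 RPM) and miR-183-5p (1544 to 3594 against 13279 to 21486 RPM) form separate groups, whereas those of miR-96-5p (1641 to 4507 against 2798 to 5431 RPM) overlap.

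In all, 3 of the 5 listed arms were called higher in aid-sEVs, namely both abundant guide strands and miR-182-3p, and 0 were called lower, against 15.6% of all entries called higher and 1.81% called lower by the same rule. The same 3 arms had every aid-sEV library above every nid-sEV library, which held for 24.2% of all entries. Calls were common in this table, and the share called among 5 entries says little against that background. The count tests on the recovered reads gave the same order among the guide strands. With edgeR's quasi-likelihood test, where 19.6% of the 245 entries tested were called higher, the log2 fold changes were 3.33 for miR-182-5p (adjusted p = 0.0032), 2.95 for miR-183-5p (adjusted p = 0.0038) and 0.47 for miR-96-5p (adjusted p = 0.45). Its filter on low counts kept the 3 guide strands and removed both 3p arms. With DESeq2, where 14.9% of the 436 entries with an adjusted p were called higher, they were 3.55, 3.14 and 0.65, with adjusted p-values of 1.0e-18, 3.5e-10 and 0.36. DESeq2, with its own size factors, called 65 entries higher and 50 lower, where limma called 112 and 13.

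**Figure D2:**
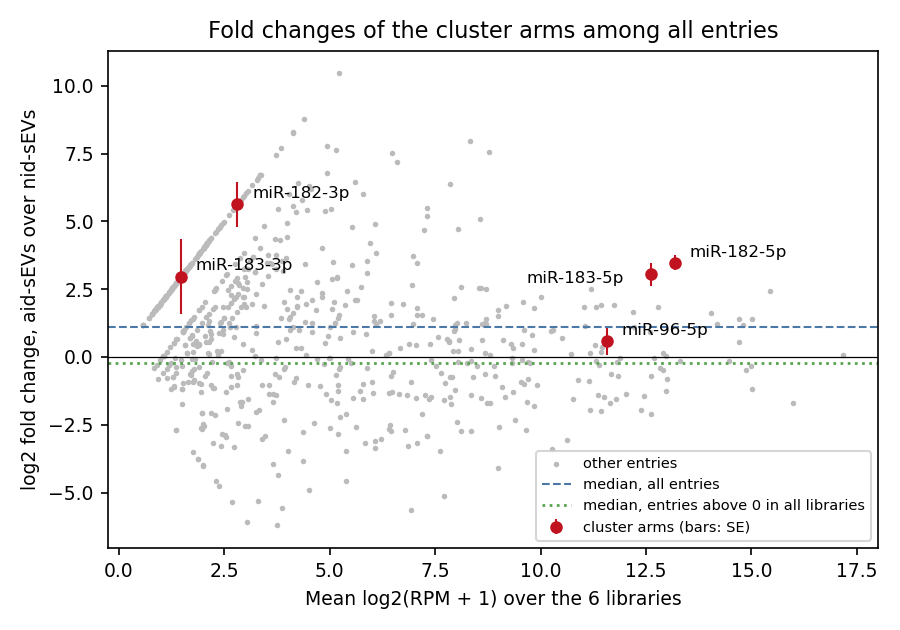
The log2 fold change of aid-sEVs over nid-sEVs (limma, vertical axis) against the mean log2(RPM + 1) over the 6 libraries (horizontal axis), with the cluster arms in red with their SE, the other entries in gray, and the medians of all entries (1.11) and of entries above 0 in every library (-0.21) as lines. At the high levels on the right, miR-182-5p (3.47) and miR-183-5p (3.05) stand above most entries and miR-96-5p (0.58) lies among them, whereas the 3p arms lie on or near the diagonal formed by entries at 0 in nid-sEVs.

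The question left by these values is whether miR-96-5p differed in its change from its partners, as a call in 1 arm and none in another does not show it. The difference was therefore taken within each library, where the library total cancels. The log2 ratio of miR-96-5p over miR-182-5p was -0.58, 0.39 and -0.31 in nid-sEVs and -3.31, -3.33 and -2.53 in aid-sEVs. The groups did not overlap, with means of -0.17 ± 0.50 and -3.06 ± 0.45 (SD, n = 3 each) and a difference of -2.89. The log2 ratio of miR-96-5p over miR-183-5p was -0.23, 0.33 and 0.43 in nid-sEVs and -2.25, -2.63 and -1.98 in aid-sEVs. Here too the groups did not overlap, and the means of 0.18 ± 0.35 and -2.29 ± 0.33 differed by -2.46. Both differences had a two-sided exact permutation p of 0.10, the smallest that 3 against 3 libraries allow, and 0.17 after adjustment over the 5 ratios computed, so this test could not have passed 0.05.

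A fit that borrows the spread from all entries has more power. With limma on the log2(RPM + 1) of every entry minus that of miR-96-5p in the same library, a test chosen after the values were seen, 3.35% of the 717 other entries were called higher in aid-sEVs. Both partners were among them. Relative to miR-96-5p, miR-182-5p was higher by 2.89 ± 0.58 (SE, 95% interval 1.60 to 4.17, limma adjusted p = 0.028) and miR-183-5p by 2.46 ± 0.57 (SE, 95% interval 1.21 to 3.72, limma adjusted p = 0.049) on the log2 scale, the latter only just inside the threshold. In the same fit taken relative to miR-183-5p, the difference of miR-96-5p had a limma adjusted p of 0.0096. As miR-183-5p itself rose by 3.05, an entry without a change falls in that fit. The share of all entries called in it was not computed, so the 0.0096 has no background to stand beside. The unadjusted limma p-values of miR-96-5p against miR-183-5p were alike, at 0.0014 relative to miR-96-5p and 0.0011 relative to miR-183-5p. The fits thus differed mainly in the adjustment over the other entries.

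The 2 arms that rose were not separated from each other. The log2 ratio of miR-182-5p over miR-183-5p was 0.36, -0.06 and 0.74 in nid-sEVs and 1.06, 0.69 and 0.55 in aid-sEVs. The groups overlapped, and the difference of 0.42 had an exact permutation p of 0.30 (0.38 after adjustment over the 5 ratios). In the limma fit relative to miR-183-5p this difference was 0.42 ± 0.48 (SE, 95% interval -0.65 to 1.5, adjusted p = 0.55), so a change in their ratio of up to 1.5 on the log2 scale was not excluded.

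**Figure D3:**
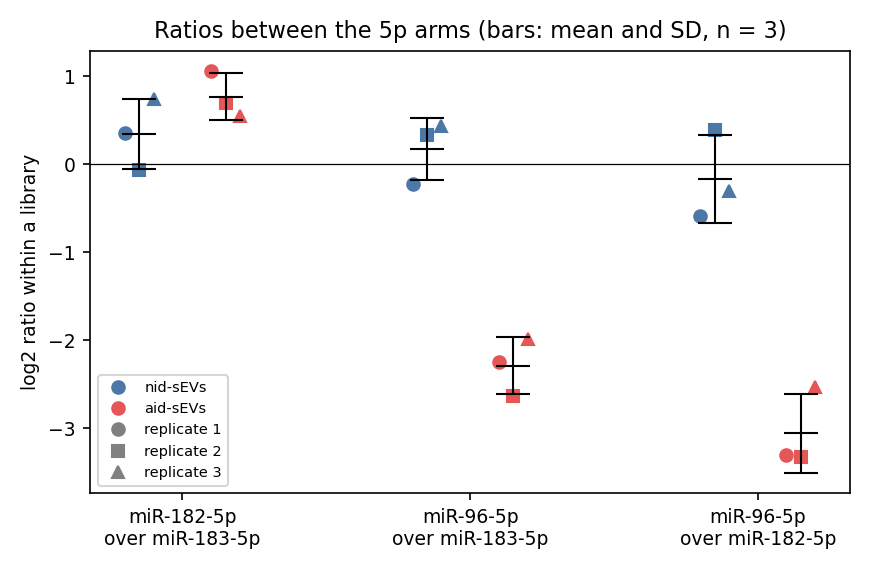
Log2 ratios between guide strands within each library (vertical axis), with nid-sEVs and aid-sEVs side by side for each pair and bars for the mean and SD of each group (n = 3). Both ratios with miR-96-5p on top lie between -0.58 and 0.43 in nid-sEVs and between -3.33 and -1.98 in aid-sEVs, whereas the ratio of miR-182-5p over miR-183-5p overlaps between the groups.

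The same pattern appeared in the make-up of the cluster's 5p reads. In nid-sEVs miR-96-5p gave 27.2%, 39.1% and 33.5% of the 5p reads of the cluster (of 778, 758 and 313 reads). In aid-sEVs it gave 6.39%, 5.8% and 9.30% (of 22731, 20678 and 7139 reads). The groups were separate, and the Wilson intervals of the nid-sEV libraries, from 24.2% to 42.6% in all, lay above each aid-sEV share. On average miR-96-5p went from 33.3% ± 5.90 to 7.16% ± 1.87 of the cluster's 5p reads (SD, n = 3 each), while miR-182-5p went from 37.4% ± 6.58 to 58.5% ± 4.69 and miR-183-5p from 29.3% ± 3.82 to 34.4% ± 3.52. The shares of the 3 arms add up to the whole, and so are not independent of each other. The shares of miR-182-5p did not overlap between the groups, with 29.8% to 41.5% in nid-sEVs and 53.9% to 63.3% in aid-sEVs, whereas those of miR-183-5p did, with 24.9% to 31.9% and 30.3% to 36.8%.

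**Figure D4:**
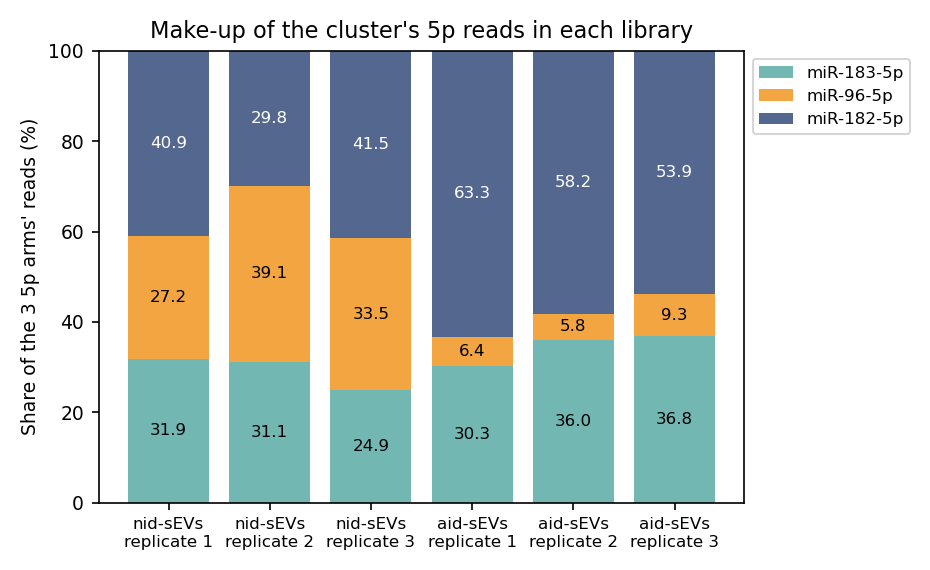
Share of the cluster's 5p reads (percent, stacked to the whole) that came from miR-183-5p, miR-96-5p and miR-182-5p in each library. The miR-96-5p segment covers 27.2% to 39.1% in nid-sEVs and 5.8% to 9.30% in aid-sEVs.

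Summed over its 5 listed arms, the cluster took 0.602%, 1.15% and 0.619% of the reads in nid-sEVs and 4.39%, 5.88% and 5.84% in aid-sEVs. The mean sum was 7920 ± 3138 RPM in nid-sEVs and 53689 ± 8517 RPM in aid-sEVs (SD, n = 3 each), a ratio of 6.78, and no test was run on this sum. As a description over the 6 libraries, which share their grouping and their differences in depth, log2(RPM + 1) of miR-183-5p and miR-182-5p had a Pearson r of 0.98. The value was 0.67 for miR-183-5p with miR-96-5p and 0.56 for miR-96-5p with miR-182-5p.

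The 3p arms, the strands that are mostly discarded, were rare throughout. miR-182-3p was at 0 in each of the nid-sEV libraries, against 38, 11 and 6 reads in the aid-sEV libraries (73.2, 31.2 and 49.1 RPM). Its level over the summed aid-sEV libraries, 55.3 RPM, was 4.53 times the 12.2 RPM that 3 reads stood for over the summed nid-sEV libraries. This ratio allows for counting error in nid-sEVs only, not for that in aid-sEVs or for the spread between libraries. In single nid-sEV libraries 3 reads stood for 23.2 to 59.4 RPM, which reaches the aid-sEV levels of 31.2 and 49.1 RPM. miR-182-3p was called higher (limma adjusted p = 0.010). Its fitted log2 fold change of 5.62 depends on the 1 RPM added to the zeros and is not a measure of size. edgeR's quasi-likelihood test without a filter on low counts, added after the data were seen, did not call it (adjusted p = 0.066), whereas DESeq2 did (adjusted p = 0.044). miR-183-3p was likewise at 0 in nid-sEVs, whereas aid-sEV replicates 1, 2 and 3 had 6, 13 and 0 reads (11.6, 36.9 and 0 RPM). The groups overlapped at 0, and the arm was not called (limma adjusted p = 0.22). The call on this arm turned on the third aid-sEV library, without which the limma adjusted p was 0.019.

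Whether the 3p arms took a larger part of their hairpin's reads in aid-sEVs could not be seen at this depth. Of the reads on either arm of miR-182, the 3p arm gave 55 of 30321 over the aid-sEV libraries, or 0.181% (95% Wilson interval 0.139% to 0.236%), and 0 of 674 over the nid-sEV libraries, which allows a share of up to 0.445%. For miR-183 the 3p arm gave 19 of 16985 reads, or 0.112% (interval 0.0716% to 0.175%), against 0 of 562, which allows up to 0.534%. Both limits for nid-sEVs lie above the shares in aid-sEVs, so the zeros in nid-sEVs do not differ detectably from the arm use in aid-sEVs. There, the 5p arm had 550 reads for each 3p read of miR-182 and 893 for miR-183.

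Because islets hold several cell types, the miRNAs that mark them were read from the same fit. The defining miRNA of islet endocrine cells, miR-375-3p, was abundant in every library. It held 56584, 150356 and 346480 RPM in nid-sEVs and 163591, 155673 and 136424 RPM in aid-sEVs, with overlapping groups, and was not called (log2 fold change 0.08, limma adjusted p = 0.95). Of the 12 miRNAs listed for islet endocrine cells 3 were higher, 1 was lower and 8 were not called, against 15.6% higher and 1.81% lower among all entries. Their median log2 fold change was 0.31, beside 1.11 over all entries and -0.21 over the entries above 0 in every library. Their summed level was 193795 to 456049 RPM in nid-sEVs and 206607 to 228782 RPM in aid-sEVs. Those called higher included miR-7b-5p, from 3751 ± 178 to 13462 ± 1558 RPM (log2 fold change 1.84, limma adjusted p = 0.010). The others were miR-124-3p, a miRNA of neurons and endocrine cells (5.09, adjusted p = 0.0072), and miR-7a-2-3p (5.55, adjusted p = 0.039, with 0 reads in 2 nid-sEV libraries). In the third nid-sEV library miR-124-3p was at 39.6 RPM, below the 59.4 RPM that 3 reads stood for there. The member called lower was miR-148a-3p, also abundant in acinar and other cells (-1.69, adjusted p = 0.037), and miR-7a-5p, a regulator of insulin secretion, was at 10950 and 9744 RPM (-0.14, adjusted p = 0.81).

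The remaining lists had medians below 0, and their counts stand beside the 1.81% of all entries called lower. Whether the cells behind these lists are separate from endocrine cells was not tested. Of 7 epithelial miRNAs of the miR-200 and skin group, 2 were lower and 0 higher, the median log2 fold change was -1.68, and the sums were 5857 to 10735 against 2024 to 4286 RPM. The 2 were miR-200c-3p, from 1762 ± 394 to 498 ± 83.0 RPM (-1.81, limma adjusted p = 0.030), and miR-200b-3p, from 809 ± 136 to 252 ± 43.8 RPM (-1.68, adjusted p = 0.046), both repressors of the mesenchymal factors Zeb1 and Zeb2. Of 5 red cell and liver miRNAs 2 were lower and 0 higher, namely miR-486a-5p (-3.07, adjusted p = 0.025) and the hepatocyte miRNA miR-122-5p (-5.14, adjusted p = 0.016), with sums of 4611 to 10608 against 414 to 1548 RPM. Of 5 leukocyte miRNAs 1 was lower and 0 higher, the lymphocyte miRNA miR-150-5p (-3.19, adjusted p = 0.046), with sums of 152 to 435 against 24.5 to 38.5 RPM. In the third aid-sEV library miR-150-5p was at 16.4 RPM, below the 24.5 RPM that 3 reads stood for there. The lowest leukocyte sum in aid-sEVs was no higher than that floor. The sums of the epithelial, red cell and liver, and leukocyte lists did not overlap between the groups. How many of all entries were lower in this way was not computed, so no background stands beside it.

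Of the 6 mesenchymal, 2 endothelial and 3 acinar miRNAs, 0 were called in either direction, with median log2 fold changes of -1.58, -1.04 and -1.41. Their sums overlapped, at 5422 to 24684 against 4494 to 11636 RPM for mesenchymal cells, 989 to 3717 against 679 to 1325 RPM for endothelial cells and 2533 to 8997 against 698 to 3370 RPM for acinar cells. The red cell miRNA miR-144-5p was at 0 in all 3 aid-sEV libraries. Calls lower thus covered 2 of 7 epithelial, 1 of 5 leukocyte and 2 of 5 red cell and liver markers. The medians of the mesenchymal, endothelial and acinar lists were below 0 as well. Whether any of these markers had a part in the rise of miR-182-5p and miR-183-5p was not tested.

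The entries most like the summed guide strands over the 6 libraries, out of 175 miRBase-named entries above 0 in every library, were miR-124-3p (Pearson r 0.999 on log2(RPM + 1), from 74.4 to 2271 RPM), miR-700-3p (0.99, from 504 to 1750 RPM), miR-470-5p (0.98, from 31.0 to 2130 RPM), miR-741-3p (0.98, from 42.7 to 6166 RPM) and miR-362-5p (0.97, from 50.4 to 318 RPM). All 5 were called higher in aid-sEVs, with limma adjusted p-values from 0.0064 to 0.033. Among the 219 entries above 0 in every library 22 were called higher, and among all entries 15.6%. Any entry that separates the groups will score high by this measure, so these calls follow largely from how the 5 were chosen. The closest by this measure was miR-124-3p. Its level in the third nid-sEV library, 39.6 RPM, was below the 59.4 RPM that 3 reads stood for there. The nid-sEV means of miR-470-5p, miR-741-3p and miR-362-5p also lay within the 23.2 to 59.4 RPM that 3 reads stood for.

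**Figure D5:**
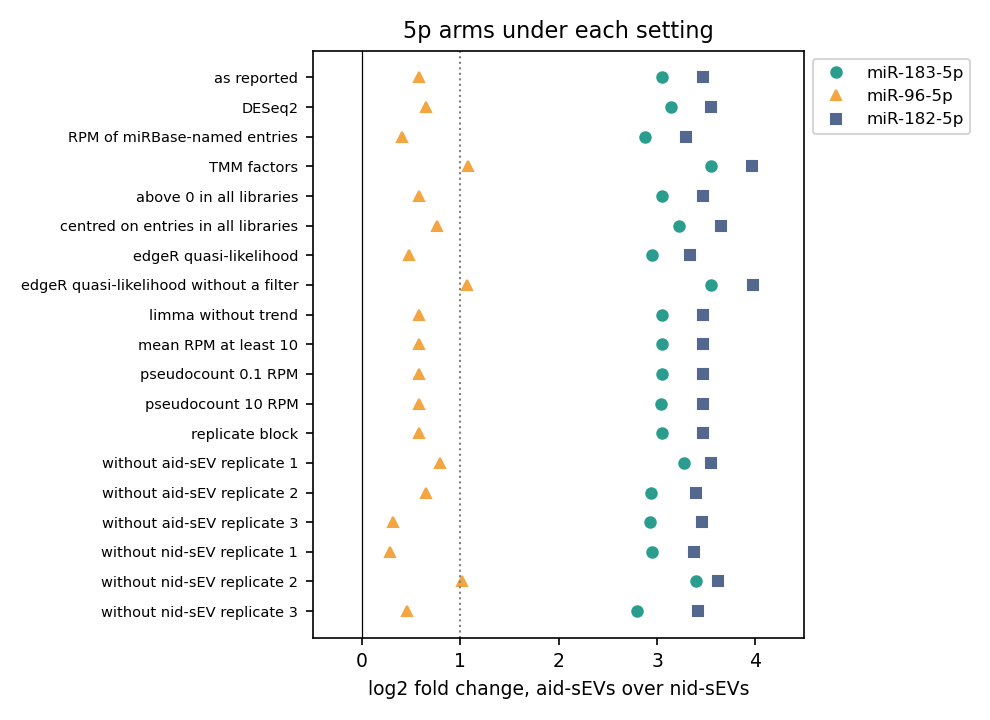
Log2 fold changes of the 3 guide strands (horizontal axis) in the reported fit and under each alternative processing (rows), with a dotted line at 1, the size a call needed. miR-182-5p stays between 3.30 and 3.98 and miR-183-5p between 2.79 and 3.55, whereas miR-96-5p stays between 0.28 and 1.08.

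Under each alternative shown, the log2 fold changes of miR-182-5p and miR-183-5p were at least 2.79. Both were called in each of them except the fit with a replicate block, where the adjusted p-values from limma were 0.053 and 0.070, and miR-96-5p was called in none.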

How the data were processed

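Per the labels and the methods of the study, RNA was extracted from the vesicles with the miRNeasy kit, made into small RNA libraries and sequenced on an Illumina NovaSeq. The reads were processed by a sequencing company. The submitters' processing notes name fastp 0.23.0, HISAT2 2.2.1 and build GRCm38. The program that counted the miRNAs was not given in the sources used here. The authors deposited a single table of 718 entries with a value in RPM for each of the 6 libraries, which were grouped by their titles. The table lists entries above 0 in at least 2 libraries. Its columns with the authors' own comparison (log2 fold change, abundance, p-value and false discovery rate) were not used.

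The smallest value above 0 in a library was taken as 1 read, and 100% of the values were then whole within 0.05 reads. Floors are 3 reads, and intervals for shares are 95% Wilson intervals. Both cover counting error only. Log2(RPM + 1) was tested with limma 3.58.1 (eBayes with trend) in R 4.3.3, with diet group as the only term, two-sided, with Benjamini-Hochberg adjustment over all entries. The pseudocount of 1 RPM can make the log2 fold changes of low entries too small or, where libraries are at 0, too large. edgeR 4.0.16 and DESeq2 1.42.0 were alternatives, applied to the recovered reads, and ratios within libraries were compared with two-sided exact permutation tests. Alternatives were the pseudocount (0.1 and 10 RPM), filters, scaling, a replicate block and leaving out each library. In a check on simulated data, limma also called some unchanged entries. The named miRNAs are the cluster's arms, miRNAs with the same seed, the 5 entries most alike, and at most the 4 most abundant members of each marker list in full; further members were named after their values were seen. The members, lists and alternatives were chosen with earlier results of these data known. RefSeq sequences were matched by miRNA name for all 5 members.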

Additional observations from a re-analysis of the deposited data

How the results depend on the processing

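Leaving out single libraries moved the log2 fold change of miR-182-5p between 3.38 and 3.62, of miR-183-5p between 2.79 and 3.40, of miR-96-5p between 0.28 and 1.01, of miR-182-3p between 5.33 and 5.93 and of miR-183-3p between 1.83 and 4.45, the last without the third aid-sEV library, where it was called. The calls on the 2 abundant guide strands held in each of these, but the number of entries called higher (112) ranged from 33 (without the second nid-sEV library) to 150, and was 61 without the third nid-sEV library. The number called lower (13) ranged from 1 (without the second nid-sEV library) to 26 (without the first), with 4, 2 and 8 without aid-sEV replicates 1, 2 and 3. Entries called higher numbered 65 with DESeq2, 48 with edgeR, 56 with edgeR without a filter, 23 among entries above 0 in all libraries, 69 with a mean of at least 10 RPM and 62 with a pseudocount of 10 RPM. Entries called lower numbered 50, 21 and 7 in the first 3 of these, 3 with TMM factors and 8 with a pseudocount of 0.1 RPM. The cause was not tested.

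Whether same-numbered libraries were prepared as pairs was not given in the sources used here. Their deviations correlated at -0.054, 0.13 and -0.11, beside -0.20 to 0.21 for libraries with different numbers, which cannot settle it. With a replicate block, limma called 0 entries in either direction (187 of 718 had an unadjusted p under 0.05), and the log2 fold changes of miR-182-5p (3.47, adjusted p = 0.053), miR-183-5p (3.05, adjusted p = 0.070) and miR-182-3p (5.62, adjusted p = 0.087) were no longer called. edgeR without a filter gave miR-182-3p 6.51 (adjusted p = 0.066). Limma fits relative to a member, chosen after the values were seen, passed the threshold that the exact test could not reach. For miR-96-5p over miR-183-5p (-2.46) the limma adjusted p was 0.0096 relative to miR-183-5p and 0.049 relative to miR-96-5p. For miR-96-5p over miR-182-5p (-2.89) it was 0.028 in the fit relative to miR-96-5p. The share of all entries called was computed only for the fit relative to miR-96-5p. The 5p over 3p ratios rest on zeros in nid-sEVs. For miR-182 the difference turned from -2.15 to 0.91 with a pseudocount of 10 RPM, and for miR-183 (0.083) it ranged from -1.52 to 1.11, below 0 without nid-sEV replicate 1 (-0.015) or 3 (-0.17) or aid-sEV replicate 3 (-1.52). Depth limits the 3p arms, which were at 0 reads in nid-sEVs.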

Other observations

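The entries most like miR-96-5p over the 6 libraries were a different set from those most like its partners. By Pearson r on log2(RPM + 1), among 175 candidates, they were miR-501-3p (0.91, nid-sEV mean 999 RPM, aid-sEV mean 1802 RPM), miR-3968 (0.84, from 212 to 278 RPM), miR-421-3p (0.84, from 189 to 284 RPM), miR-130a-3p (0.84, from 29.5 to 53.0 RPM) and miR-541-5p (0.83, from 22633 to 32256 RPM). Against 15.6% of all entries called higher and 1.81% called lower, 0 of these 5 were called in the limma fit (adjusted p-values from 0.26 to 0.58). They were chosen after their values were seen, and with 6 libraries in 2 groups these correlations are a description only.

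For miR-182-5p the closest entry was miR-7b-5p (r 0.99), and for miR-183-5p it was miR-124-3p (r 0.998). Both are on the list for islet endocrine cells, but of its 12 members 8 were not called and 1 was lower. Here too, any entry that separates the groups will score high. miR-370-3p, a miRNA of an imprinted cluster, was also close to miR-183-5p (r 0.98, from 189 to 1007 RPM) and was called higher (log2 fold change 2.50, limma adjusted p = 0.030).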
